A study of Homo sapiens with 18 samples.

Results

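The cytosolic transfer RNAs (tRNAs) for threonine and proline were followed in small RNA sequencing of HEK293T cells, a human embryonic kidney line that carries SV40 large T antigen. Cells received either a scramble siRNA, here called control, or an siRNA against SSB, the gene for the La protein, here called siSSB, by RNAiMAX transfection for 48 hours. RNA came from whole cells (total), the nuclear fraction (nuc) or the cytoplasmic fraction (cyto), with 3 libraries in each of the 6 groups and 18 in all. All 18 library titles carry the mark Plus_PNK, for PNK treatment. The study describes its replicates as biological, but the labels do not say whether they were separate cultures or transfections, so the p-values measure the spread between these libraries. A knockdown leaves part of a protein in place, and SSB mRNA and La protein were not analysed here. Members were the table entries whose name starts with tRNA-Thr- or tRNA-Pro- and whose span is at most 500 nt. They were 44 entries, 22 for threonine and 22 for proline, of 175935 in the table and of 499 cytosolic tRNA entries. By anticodon the proline genes were 10 AGG, 4 CGG, 7 TGG and 1 GGG, and the threonine genes were 10 AGT, 6 CGT and 6 TGT. Genes are called here by their RefSeq symbols (TRP- for proline, TRT- for threonine), which matched 41 entries by position, because the table gives one name to several loci. The 3 unmatched entries keep their table names.

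RNA polymerase III transcribes tRNA genes from promoter elements inside the gene, the A and B boxes, and stops at a run of T in the nontemplate strand. The new transcript therefore ends in a short U tail, which La binds. La protects the 3′ end and helps the precursor to be trimmed and folded before the trailer is removed, CCA is added and the mature tRNA leaves the nucleus. Within each amino acid, the anticodons described below differ in the codons they read best.

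The proline genes are near copies of each other, and their sequences are shown first because the reads of such genes can be told apart at few positions. All sequences below were read from hg38 at the RefSeq gene positions, 5′ to 3′ on the gene's strand, with the anticodon in capitals. TRP-TGG1-1 lies at chr14:20633006-20633077 (plus strand), TRP-TGG3-1 at chr5:181188854-181188925 (minus), TRP-AGG2-1 at chr1:167715488-167715559 (minus) and TRP-CGG2-1 at chr6:27091742-27091813 (plus).
TRP-TGG1-1: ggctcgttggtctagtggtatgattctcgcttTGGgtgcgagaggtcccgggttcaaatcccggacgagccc
TRP-TGG3-1: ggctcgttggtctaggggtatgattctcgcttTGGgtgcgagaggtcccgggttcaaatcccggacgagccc
TRP-AGG2-1: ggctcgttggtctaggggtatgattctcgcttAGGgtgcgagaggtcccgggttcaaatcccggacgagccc
TRP-CGG2-1: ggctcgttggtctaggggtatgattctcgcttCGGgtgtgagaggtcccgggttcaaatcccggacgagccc
Counted from 1 at the 5′ end of the gene, TRP-AGG2-1 and TRP-TGG3-1 differ by A33T, which is the first base of the anticodon. TRP-TGG3-1 and TRP-TGG1-1 differ by G16T. The 20 proline genes of 72 nt differed from each other at 0 to 4 positions. Over both amino acids the 44 genes carried 28 distinct sequences, and 21 genes fell into 5 sets of identical copies: 8 TRP-AGG2 genes, 5 TRP-TGG3 genes, 3 TRP-CGG1 genes, 3 TRT-AGT1 genes and 2 TRT-AGT2 genes.

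The threonine genes were more varied. Compared position by position without alignment, they differed at 1 to 43 positions at 72 nt, 2 to 6 at 73 nt and 0 to 38 at 74 nt. The anticodon starts at position 33 or 34 in those of 72 nt and at 34 or 35 in those of 74 nt. The larger counts can therefore include a shift between otherwise similar sequences. The sequences below are those of the threonine genes on which the results turn. TRT-TGT5-1 lies at chr14:20681690-20681762 (plus strand), TRT-TGT4-1 at chr14:20631160-20631232 (minus), TRT-AGT5-1 at chr17:8139452-8139525 (minus) and TRT-CGT5-1 at chr6:27618356-27618429 (plus).
TRT-TGT5-1: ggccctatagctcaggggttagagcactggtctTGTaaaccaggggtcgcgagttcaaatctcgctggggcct
TRT-TGT4-1: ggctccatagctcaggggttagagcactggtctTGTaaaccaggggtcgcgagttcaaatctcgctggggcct
TRT-AGT5-1: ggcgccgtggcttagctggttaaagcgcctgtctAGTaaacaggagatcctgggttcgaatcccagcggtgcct
TRT-CGT5-1: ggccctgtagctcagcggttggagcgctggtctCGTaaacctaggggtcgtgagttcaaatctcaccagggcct
From TRT-TGT4-1 to TRT-TGT5-1 the changes are T4C and C6T. A B box match, spelled GTTCNANNC and searched on the gene's strand within the gene, stood in 20 of 22 threonine genes (90.9%), 21 of 22 proline genes (95.5%) and 375 of 455 other cytosolic tRNA genes (82.4%).

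The table counted reads over each gene with 25 nt added on either side, so each count could hold mature tRNA, precursor and fragments of either. The 25 nt after the gene are shown for the 5 identical TRP-TGG3 genes and for TRP-TGG1-1 and TRT-TGT5-1, with the first run of at least 4 T in capitals. TRP-TGG3-2 lies at chr14:20684016-20684087 (plus strand), TRP-TGG3-3 at chr16:3158922-3158993 (plus), TRP-TGG3-4 at chr16:3184133-3184204 (minus) and TRP-TGG3-5 at chr16:3188094-3188165 (plus).
TRP-TGG3-1: acTTTTTcatttttttttttccatt
TRP-TGG3-2: tcgtggctactgTTTTTccaccccc
TRP-TGG3-3: gcTTTTTTTTTTTTTTctgaacacc
TRP-TGG3-4: ccTTTTccttctcttttttcccatt
TRP-TGG3-5: ccTTTTccttctcttttttcccatt
TRP-TGG1-1: ctttactttcctttccgtttcatct
TRT-TGT5-1: tgcgaaactactttcttgattcagg
The trailers of TRP-TGG3-4 and TRP-TGG3-5 were the same at all 25 positions, while their leaders differed at 7 of 25. A run of TTTT was present in this window in 19 of 22 proline genes (86.4%), 12 of 22 threonine genes (54.5%) and 358 of 455 other cytosolic tRNA genes (78.7%). TRP-TGG1-1 and TRT-TGT5-1 had none there.

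Library totals in the table ran from 21565995 to 158244813 counts. The threonine and proline genes together held 6042 to 18727 counts in total RNA libraries, 10795 to 40481 in cyto libraries and 1003 to 1753 in nuc libraries, so nuclear values rest on the fewest reads. C/D and H/ACA snoRNAs, which reside in the nucleus, checked the fractions: 288 of 297 tested were higher in control nuc than in control cyto by edgeR at an adjusted p under 0.05, with a median log2 fold change of 5.43. Mitochondrial tRNAs, the cytoplasmic check, separated less clearly. Of the 20 not for threonine or proline, 9 were lower in control nuc and 1 was higher by the same test (median -0.76). TRP-GGG1-1, a pseudogene, had 0 counts in every library, which allows at most 3 counts or 1.39e-05% of the smallest library, counting error only. tRNA-Thr-AGT-7-1 had 1 count in all, and 33 of the 44 genes averaged at least 50 counts.

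Proline tRNA genes gave several times the counts of threonine tRNA genes, and the TGG anticodon led. The counted windows were nearly equal in length for all genes but 1, so raw counts compare nearly per length. The highest mean counts over the 18 libraries were those of TRP-TGG1-1 (1438), TRP-TGG3-2 (1310), TRP-TGG3-1 (1157), TRP-TGG3-3 (780.8) and TRP-TGG2-1 (586.3). The order changed with the type of RNA: TRP-TGG1-1 led in control cyto with a mean of 4741 counts, but in control total it had 1842 against 2333 for TRP-TGG3-1 and 2111 for TRP-TGG3-2. By the same mean over all libraries, the leading genes of the other anticodons were TRP-AGG2-1 with a mean of 404.2 counts, TRP-CGG2-1 with 355.1, TRT-CGT2-1 with 201.4, TRT-TGT3-1 with 200.2 and TRT-AGT3-1 with 164.3. In control libraries the ratio of proline to threonine counts was 5.594 to 6.181 for total, 4.973 to 5.922 for cyto and 1.854 to 2.570 for nuc RNA. It stood at 4.941 to 6.332, 5.364 to 6.264 and 2.081 to 2.464 in the matching siSSB groups, overlapping control in each type of RNA.

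The first question was which of these tRNAs change when La is depleted, starting with total RNA. All 39 tested genes had a negative log2 fold change, siSSB against control, with a median of -0.95 against -0.01 over all features tested. By edgeR's quasi-likelihood test, with p-values adjusted by Benjamini-Hochberg over all features, 10 of the 39 fell and none rose. The background is 0.972% of all features tested called lower, and 33 of 397 other cytosolic tRNA genes (8.31%) were also called lower, with a median of -0.81. The members that fell were 4 of 7 Pro-TGG genes, 3 of 6 Thr-TGT genes and 3 of 7 tested Thr-AGT genes. None of the 9 tested Pro-AGG, 4 Pro-CGG and 6 Thr-CGT genes passed the test. Still, the median log2 fold change was -1.16 for Thr-CGT, against -1.11 for Thr-AGT, -0.73 for Pro-AGG and -0.82 for Pro-CGG. In 5 of the 6 Thr-CGT genes every siSSB library lay below every control library, as in 28 of all 39 tested threonine and proline genes. The same share over all features tested was not calculated. A library scaling set by other tRNAs, or by library size alone, left 4 of the 10 calls, one set by snoRNAs left none, and one set by miRNAs called all 39 lower. In such bulk libraries a fall in a part of the cells and a smaller fall in all cells cannot be told apart.

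TRP-TGG1-1, a proline tRNA gene with the TGG anticodon, had 35.0, 24.6 and 28.5 CPM (counts scaled to a common library size, with edgeR's TMM factors) in the control total libraries and 8.41, 5.90 and 11.4 CPM in the siSSB total libraries. Every siSSB library was below every control library, and the log2 fold change was -1.78 ± 0.30 (SE, n = 3 per group, edgeR adjusted p = 0.0222). TRP-TGG3-1 had 51.5, 29.1 and 32.0 CPM in control and 9.26, 6.71 and 14.8 CPM in siSSB. Its groups did not overlap either, with a log2 fold change of -1.87 ± 0.35 (edgeR adjusted p = 0.0288). TRP-TGG3-3, of the same sequence on another chromosome, went from 19.4, 13.2 and 19.7 CPM to 5.33, 3.77 and 6.43 CPM, a log2 fold change of -1.75 ± 0.28 (edgeR adjusted p = 0.0174). TRP-TGG2-1, which differs from TRP-TGG3-1 by C30G and G38C, went from 20.2, 13.3 and 12.8 CPM to 4.92, 3.47 and 7.04 CPM, a log2 fold change of -1.59 ± 0.31 (edgeR adjusted p = 0.0304). In all 4 genes control replicate 1 was the highest library or close to it, and siSSB replicate 3 was the highest siSSB library. The other 3 Pro-TGG genes also lay lower in every siSSB library but missed the threshold, with log2 fold changes of -1.10 ± 0.37 for TRP-TGG3-2, -0.75 ± 0.23 for TRP-TGG3-4 and -0.90 ± 0.25 for TRP-TGG3-5.

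Among threonine genes TRT-TGT5-1 changed most in total RNA. It had 3.15, 2.44 and 2.79 CPM in control and 0.666, 0.421 and 0.903 CPM in siSSB, where all 3 libraries lay far below control. The log2 fold change was -2.08 ± 0.29 (edgeR adjusted p = 0.0123). TRT-TGT3-1, the leading Thr-TGT gene, went from 6.40, 4.09 and 4.95 CPM to 1.58, 1.53 and 2.55 CPM, a log2 fold change of -1.45 ± 0.28 (edgeR adjusted p = 0.0303). TRT-TGT1-1 varied little within groups, at 1.20, 1.14 and 1.22 CPM in control and 0.471, 0.409 and 0.451 CPM in siSSB (log2 fold change -1.42 ± 0.23, edgeR adjusted p = 0.0174). TRT-AGT3-1, the leading Thr-AGT gene, went from 4.87, 2.54 and 3.53 CPM to 1.27, 1.26 and 1.76 CPM (log2 fold change -1.35 ± 0.28, edgeR adjusted p = 0.0368). The identical copies TRT-AGT1-3 and TRT-AGT1-2 fell by 1.25 ± 0.27 and 1.11 ± 0.24 on the log2 scale, with edgeR adjusted p of 0.0440 and 0.0465. The third identical copy, TRT-AGT1-1, had a log2 fold change of -0.93 ± 0.22 and did not pass (edgeR adjusted p = 0.0676). Without siSSB total replicate 1 or without replicate 2, 3 of the threonine and proline genes passed, and without control total replicate 2, 5 did. TRT-TGT5-1 and TRP-TGG3-3 passed with any 1 library left out, and TRP-TGG1-1 in 5 of the 6 such fits.

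The genes of the other 3 anticodons with the highest mean count over all libraries did not pass in total RNA. TRP-AGG2-1 was at 11.7, 6.43 and 7.03 CPM in control and 4.21, 2.88 and 6.32 CPM in siSSB, a log2 fold change of -0.91 ± 0.32. TRP-CGG2-1 was at 8.10, 6.09 and 6.82 CPM in control and 3.90, 3.11 and 5.98 CPM in siSSB, a log2 fold change of -0.70 ± 0.27. TRT-CGT2-1 was at 2.80, 3.33 and 2.61 CPM in control and 1.71, 1.80 and 2.38 CPM in siSSB. Its log2 fold change was -0.57 ± 0.23, the least negative of the 6 Thr-CGT genes. In each of these leading genes, siSSB replicate 3 came closest to the control libraries without reaching them. The edgeR adjusted p-values were 0.172, 0.222 and 0.248. TRP-CGG1-2, which led Pro-CGG in control total RNA alone, had the most negative log2 fold change of that anticodon, -1.08 ± 0.43, with overlapping groups (edgeR adjusted p = 0.225).

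**Figure D1:**
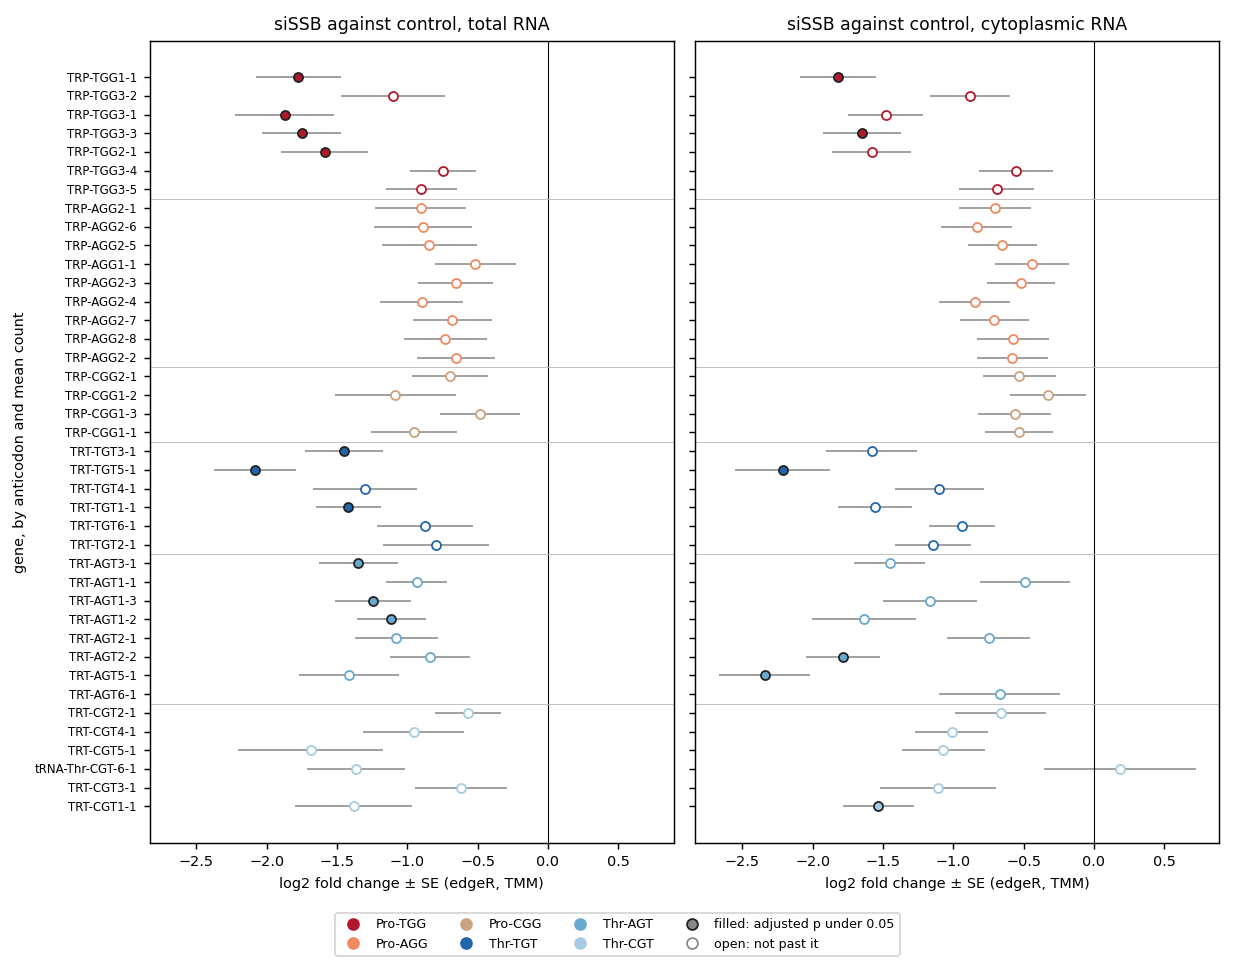
Log2 fold change ± SE of each tested gene, siSSB against control, in total RNA (left) and cytoplasmic RNA (right), with genes grouped by anticodon and ordered by mean count. Filled points passed edgeR's adjusted p of 0.05. All 39 genes lie left of 0 in total RNA, and filled points occur among Pro-TGG, Thr-TGT and Thr-AGT genes there.

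The make-up of the proline pool was compared next, since a share within the pool does not depend on how libraries are scaled. Sums and shares were given no test. The identical TRP-AGG2, TRP-CGG1 and TRP-TGG3 sets differ from each other only at base 33. Reads inside these genes that miss base 33 cannot be placed by anticodon, and how they were assigned is not given. Anticodon sums and shares of proline therefore share this uncertainty. Pro-TGG held 64.95%, 65.73% and 67.91% of proline counts in control total libraries and 55.42%, 53.69% and 53.54% in siSSB total libraries. The mean share was 66.2% ± 1.53 in control and 54.2% ± 1.04 in siSSB (SD, n = 3). In cyto RNA Pro-TGG held 65.55%, 63.24% and 70.39% in control and 54.56%, 55.72% and 52.28% in siSSB. In nuc RNA it held 51.82%, 44.83% and 42.30% in control and 37.39%, 38.36% and 41.08% in siSSB. The Pro-TGG share was thus lower in every siSSB library than in any control library of the same RNA, though in the nucleus by a narrow gap. Pro-AGG, whose leading gene differs from TRP-TGG3-1 at 1 base, was correspondingly higher, at 22.0% ± 0.560 of proline counts in control total and 30.3% ± 0.677 in siSSB total. Its share was 23.1% ± 2.86 and 30.3% ± 1.37 in cyto RNA, and 34.5% ± 2.45 and 42.9% ± 1.58 in nuc RNA. Pro-CGG held 11.8% ± 0.980 in control and 15.5% ± 0.550 in siSSB for total RNA, and 10.5% ± 0.884 and 15.5% ± 0.391 for cyto RNA, without overlap, while its nuclear shares overlapped.

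Threonine anticodon shares differed less evenly. Thr-TGT held 40.26%, 40.01% and 39.21% of threonine counts in control total libraries and 33.80%, 30.97% and 36.96% in siSSB total libraries. These did not overlap, but the cyto shares did, at 28.83% to 40.92% in control and 24.54% to 30.35% in siSSB. Thr-CGT was higher in siSSB, at 21.74%, 21.80% and 19.72% in control total against 23.64%, 23.89% and 26.92% in siSSB total. In cyto RNA Thr-CGT held 22.61%, 24.79% and 19.10% in control and 30.06%, 25.98% and 33.85% in siSSB. These shares include tRNA-Thr-CGT-6-1, which lacks the B box match. It had 68, 24 and 79 counts in control cyto and 26, 44 and 125 in siSSB cyto. The narrow gap between 24.79% and 25.98% therefore depends in part on this gene. In nuc RNA the Thr-CGT shares overlapped and the means lay the other way, at 29.5% ± 6.42 in control and 25.5% ± 3.46 in siSSB. The Thr-AGT shares overlapped between control and siSSB in all 3 types of RNA.

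**Figure D2:**
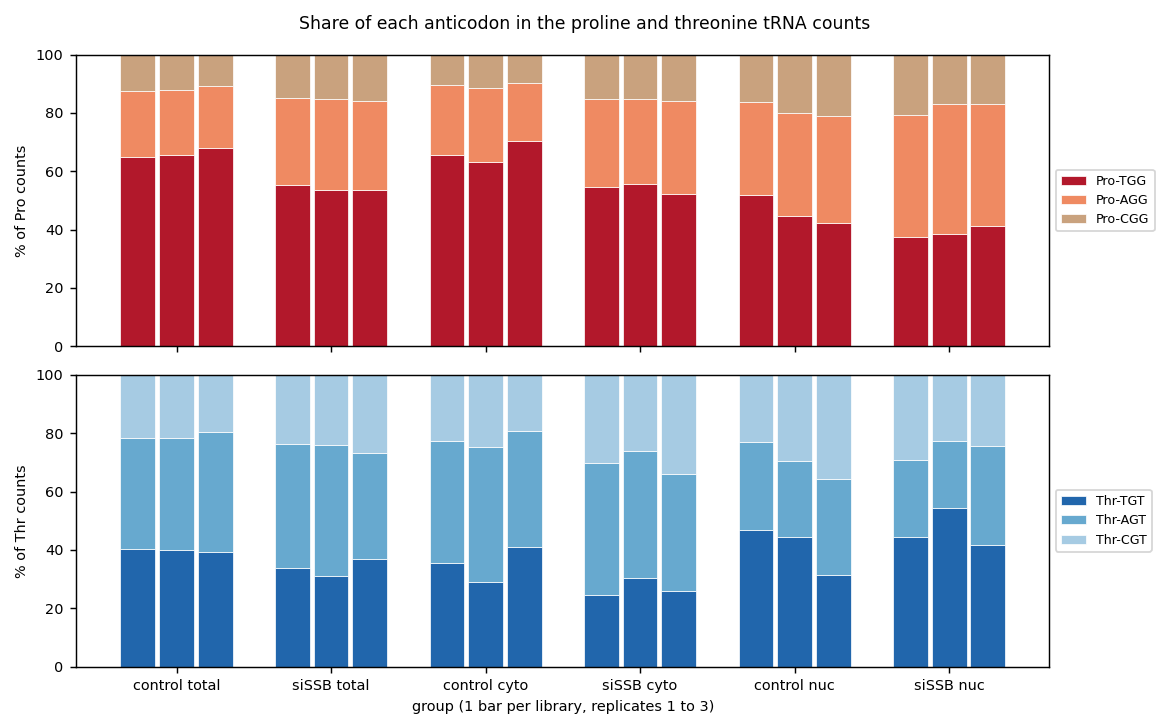
Percent of proline counts (top) and of threonine counts (bottom) held by each anticodon, 1 bar for each of the 18 libraries, grouped by siRNA and type of RNA. The dark red Pro-TGG part spans 64.95% to 67.91% in control and 53.54% to 55.42% in siSSB libraries of total RNA, and it is smaller in both nuclear groups than in control total.

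Set against all cytosolic tRNA counts, threonine and proline genes together made up 3.245%, 2.976% and 2.971% in control total and 1.994%, 1.936% and 2.541% in siSSB total. In cyto RNA they made up 2.771%, 2.680% and 2.978% in control and 1.982%, 1.928% and 2.043% in siSSB. The siSSB libraries lay below control in both, whereas in nuc RNA all siSSB libraries (2.291%, 2.669% and 2.303%) lay above all control libraries (2.282%, 1.766% and 2.140%), by little for the nearest pair. Pro-TGG alone held 1.73% ± 0.0776 of tRNA counts in control total and 0.994% ± 0.162 in siSSB total. In cyto RNA it held 1.57% ± 0.197 in control and 0.918% ± 0.0155 in siSSB. Pro-AGG, in contrast, overlapped in total RNA where control libraries held 0.5441% to 0.6295% and siSSB libraries 0.4982% to 0.6671%. Thr-TGT held 0.177% ± 0.00690 in control total and 0.110% ± 0.0161 in siSSB total, without overlap.

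**Figure D3:**
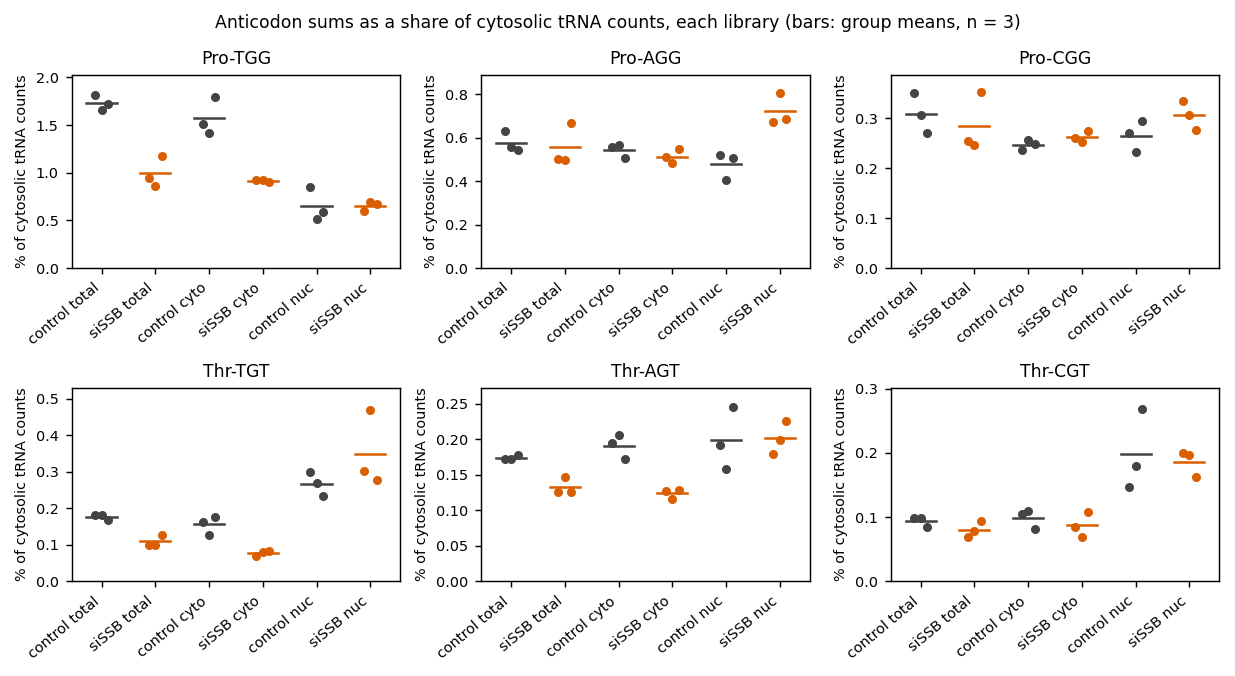
Each anticodon's counts as a percent of all cytosolic tRNA counts, 1 point per library and a bar at the mean of the 3, in control (grey) and siSSB (orange). Pro-TGG is separated between control and siSSB in total and cyto RNA, and Pro-AGG is not in total RNA.

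The summed CPM of each anticodon were also compared between groups. In total RNA the log2 ratio of mean CPM, siSSB over control, was -1.51 for Pro-TGG, -1.41 for Thr-TGT, -1.14 for Thr-AGT, -0.95 for Thr-CGT, -0.83 for Pro-CGG and -0.77 for Pro-AGG. The library ranges overlapped for Pro-CGG and Pro-AGG and not for the others. In cyto RNA the log2 ratio was -1.61 for Thr-TGT, -1.38 for Pro-TGG, -1.19 for Thr-AGT, -0.74 for Thr-CGT, -0.66 for Pro-AGG and -0.49 for Pro-CGG, with no overlap in any.

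The 5 TRP-TGG3 genes have 1 mature sequence but different counts. TRP-TGG3-1 had 2961, 1832 and 2205 counts in the control total libraries, TRP-TGG3-2 had 2630, 1744 and 1958, and TRP-TGG3-3 had 1117, 832 and 1357. TRP-TGG3-4 had 298, 275 and 363, and TRP-TGG3-5 had 289, 215 and 257. The highest copy was 8.52 to 10.2 times the lowest within a control total library, against 2.63 to 3.44 times for the 8 identical TRP-AGG2 genes. Reads inside the gene cannot be placed among identical copies, and the sources used here do not say how such reads were assigned or whether strand was used in counting. The values of single copies are therefore uncertain.

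The shares of the copies also differed between siSSB and control, which the sum over them does not show. TRP-TGG3-1 held 40.59%, 37.40% and 35.91% of the counts of the 5 genes in control total and 26.30%, 29.09% and 29.04% in siSSB total, with no overlap. TRP-TGG3-2 held 36.05%, 35.61% and 31.89% in control total and 44.44%, 36.55% and 46.07% in siSSB total, again without overlap and in the other direction. In cyto RNA TRP-TGG3-1 held 29.35%, 29.82% and 29.95% in control and 23.28%, 24.85% and 23.74% in siSSB. TRP-TGG3-3 held 27.64%, 25.04% and 25.24% in control cyto and 17.76%, 17.80% and 20.22% in siSSB cyto, which did not overlap, whereas its shares in total RNA did. TRP-TGG3-4 and TRP-TGG3-5, whose trailers are the same, had larger shares in every siSSB total library than in any control total library.

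**Figure D4:**
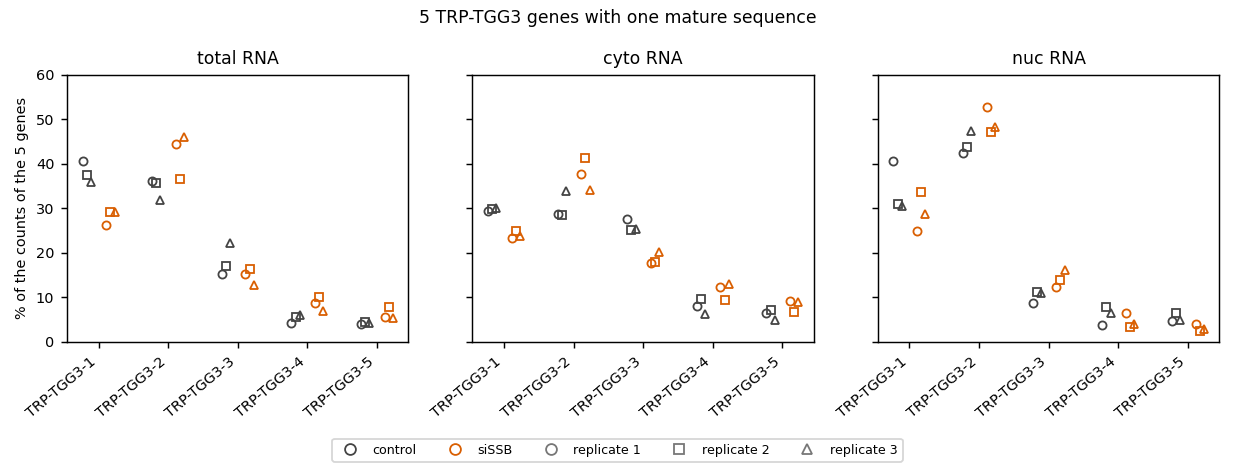
Percent of the counts of the 5 TRP-TGG3 genes held by each gene, in total, cyto and nuc RNA, with control in grey and siSSB in orange and 1 marker shape per replicate. TRP-TGG3-1 has a smaller share and TRP-TGG3-2 a larger one in siSSB total and siSSB cyto than in control.

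In cyto RNA 6 of 40 tested genes fell and none rose, against 0.27% of all features tested called lower and 13 of 402 other cytosolic tRNA genes (3.23%). The median log2 fold change was -0.86, and -0.58 for the other tRNA genes. TRP-TGG1-1 went from 155.2, 136.4 and 203.1 CPM in control to 49.5, 39.8 and 50.9 CPM in siSSB, a log2 fold change of -1.82 ± 0.27 (edgeR adjusted p = 0.0330). TRP-TGG3-3 went from 87.8, 62.5 and 100.6 CPM to 26.1, 23.6 and 30.5 CPM (log2 fold change -1.65 ± 0.28, edgeR adjusted p = 0.0498). For both, the highest siSSB library was below the lowest control library by a wide margin. TRP-TGG3-1 was at 93.3, 74.4 and 119.4 CPM in control and 34.2, 32.9 and 35.7 CPM in siSSB, with a log2 fold change of -1.48 ± 0.27 that missed the threshold (edgeR adjusted p = 0.0623).

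TRT-TGT5-1 had 18.8, 12.4 and 23.7 CPM in control cyto and 3.42, 3.15 and 5.26 CPM in siSSB cyto, a log2 fold change of -2.21 ± 0.34 (edgeR adjusted p = 0.0365). TRT-AGT5-1, a Thr-AGT gene that differs from the TRT-AGT1 genes by T16C, went from 5.86, 9.03 and 5.47 CPM to 1.47, 0.889 and 1.63 CPM (log2 fold change -2.34 ± 0.32, edgeR adjusted p = 0.0330). This was the largest negative change of a tested threonine or proline gene in cyto RNA. TRT-AGT2-2 went from 5.65, 5.27 and 5.02 CPM to 1.37, 1.22 and 2.03 CPM (log2 fold change -1.79 ± 0.26, edgeR adjusted p = 0.0330), while its identical copy TRT-AGT2-1 had a log2 fold change of -0.75 ± 0.29 and did not pass. TRT-CGT1-1 went from 1.87, 2.15 and 2.40 CPM to 0.734, 0.592 and 0.888 CPM (log2 fold change -1.53 ± 0.25, edgeR adjusted p = 0.0495). The only positive value was that of tRNA-Thr-CGT-6-1, at 0.18 ± 0.54, with overlapping groups. The cyto calls depended on each library: 0 to 3 genes passed in the fits without 1 of the 6, and 0 passed after scaling to library size, to snoRNAs or to other tRNAs.

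TRP-TGG1-1, TRP-TGG3-3 and TRT-TGT5-1 fell in both total and cyto RNA, of 13 genes that fell in at least 1 of them. Of the genes with TTTT in the 25 nt trailer, 5 of 30 tested fell in total RNA and 3 of 31 in cyto RNA, with median log2 fold changes of -0.90 and -0.71. Of those without it, 5 of 9 fell in total RNA and 3 of 9 in cyto RNA, with medians of -1.35 and -1.45. This is a description, and 8 of the 9 are threonine genes. Among threonine genes alone, 4 of 8 without TTTT and 2 of 11 with it fell in total RNA. In cyto RNA these were 2 of 8 and 2 of 12. The identical TRT-AGT1 copies lie on both sides of this split, and other tRNA genes were not split this way. Over all features tested, 0.972% were called lower in total RNA and 0.27% in cyto RNA.

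In nuc RNA none of 31 tested genes passed edgeR's test, against 0.378% of all features tested called in either direction. Of the 31, 6 had an unadjusted p under 0.05, against 959 of 6873 features tested and 74 of 285 other cytosolic tRNA genes. DESeq2 called 0 of the 31. The median log2 fold change was -0.17 over the 31 genes, 13 of which were positive. TRP-TGG1-1 was at 0.762, 0.469 and 0.452 CPM in control and 0.355, 0.275 and 0.356 CPM in siSSB, a log2 fold change of -0.78 ± 0.30 that missed the threshold (edgeR adjusted p = 0.260). TRT-TGT4-1 went the other way, at 0.406, 0.391 and 0.433 CPM in control and 0.694, 0.731 and 0.666 CPM in siSSB, with a log2 fold change of 0.77 ± 0.27 (edgeR adjusted p = 0.249). Its groups did not overlap, and it is named here because of these values. CPM here are scaled within the 6 nuc libraries and cannot be set beside those of other comparisons. The summed CPM overlapped between control and siSSB for all 6 anticodons, with a log2 ratio of -0.10 for proline and -0.22 for threonine, both of which turned positive under scaling to library size, snoRNAs, miRNAs or other tRNAs. Counts were low in these libraries, with 47 to 107 for TRP-TGG1-1 in control nuc, so single genes had the least depth there.

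Whether the siSSB effect differed between nucleus and cytoplasm was tested as an interaction in the 12 nuc and cyto libraries. None of 42 tested genes passed edgeR's test, against 0.0133% of all features tested. An unadjusted p under 0.05 was found for 6, against 1836 of 37493 features tested and 45 of 419 other cytosolic tRNA genes. DESeq2 called 0 of the 42. The estimate, nuclear minus cytoplasmic log2 fold change, was positive in 35 of 42 genes with a median of 0.67. It was positive in 261 of 419 other cytosolic tRNA genes, with a median of 0.14, and in 18897 of 37493 features tested. The highest estimates among the 6 were 2.02 ± 0.69 for TRT-AGT5-1, 1.91 ± 0.62 for TRT-TGT5-1, 1.72 ± 0.49 for TRP-TGG3-3 and 1.71 ± 0.48 for TRT-TGT4-1, each with an edgeR adjusted p of 0.958.

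The last comparison asked how the tRNAs divide between nucleus and cytoplasm. The fractions differ in RNA composition and no spike-in is named, so values are relative to the other RNAs of each fraction. In control cells 33 of 42 tested genes were lower in nuc than in cyto RNA and 1 was higher, against backgrounds of 14.1% lower and 9.21% higher. The median log2 fold change was -2.34, and -2.23 for other cytosolic tRNA genes, of which 320 of 415 were lower. In siSSB cells 25 of 40 were lower and 2 were higher, against 14.5% and 10.8%, with a median of -1.83 and of -1.93 for the other tRNA genes. Of these, 24 genes were lower in both control and siSSB cells. Proline sums lay further down than threonine sums, with log2 ratios of -2.76 and -1.43 in control and -1.95 and -0.62 in siSSB.

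TRP-TGG3-3 had the largest difference in control cells among genes averaging at least 50 counts. It stood at 19.6, 13.5 and 22.4 CPM in control cyto and 1.05, 0.738 and 0.784 CPM in control nuc, a log2 fold change of -4.43 ± 0.36 (edgeR adjusted p = 9.25e-12). TRP-TGG1-1 stood at 34.7, 29.4 and 45.3 CPM in control cyto and 2.95, 1.73 and 1.67 CPM in control nuc, a log2 fold change of -4.10 ± 0.35 (edgeR adjusted p = 2.75e-11). TRT-TGT5-1 (-4.07), TRT-AGT1-2 (-3.73), TRT-CGT2-1 (-3.57) and TRP-TGG3-4 (-3.52) followed on the log2 scale, all with groups that did not overlap. In siSSB cells the order, again among genes averaging at least 50 counts, was led by TRP-TGG3-5 (-3.78), TRP-TGG3-4 (-3.67) and TRP-TGG1-1 (-3.23). TRT-CGT2-1 (-3.02), TRP-CGG1-3 (-2.82) and TRT-AGT1-1 (-2.79) came next.

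The genes called higher in nuc RNA were threonine genes. TRT-CGT5-1 had 0.491, 0.299 and 0.634 CPM in control cyto and 1.10, 2.09 and 2.39 CPM in control nuc (log2 fold change 1.95 ± 0.37, edgeR adjusted p = 8.51e-05). In siSSB it had 0.274, 0.328 and 0.272 CPM in cyto and 1.52, 0.983 and 1.11 CPM in nuc (log2 fold change 2.04 ± 0.35, edgeR adjusted p = 4.17e-05). TRT-TGT4-1 was near 0 in control, at 0.05 ± 0.33, and higher in siSSB nuc, at 3.11, 2.92 and 2.89 CPM against 0.676, 1.11 and 0.888 CPM in siSSB cyto (log2 fold change 1.74 ± 0.34, edgeR adjusted p = 2.47e-04). The direction of both genes turned when libraries were scaled to their size alone or to snoRNAs. Both kept their direction with DESeq2's size factors and with scaling to miRNAs, where TRT-CGT5-1 in control no longer passed (log2 fold change 0.84, edgeR adjusted p = 0.148).

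**Figure D5:**
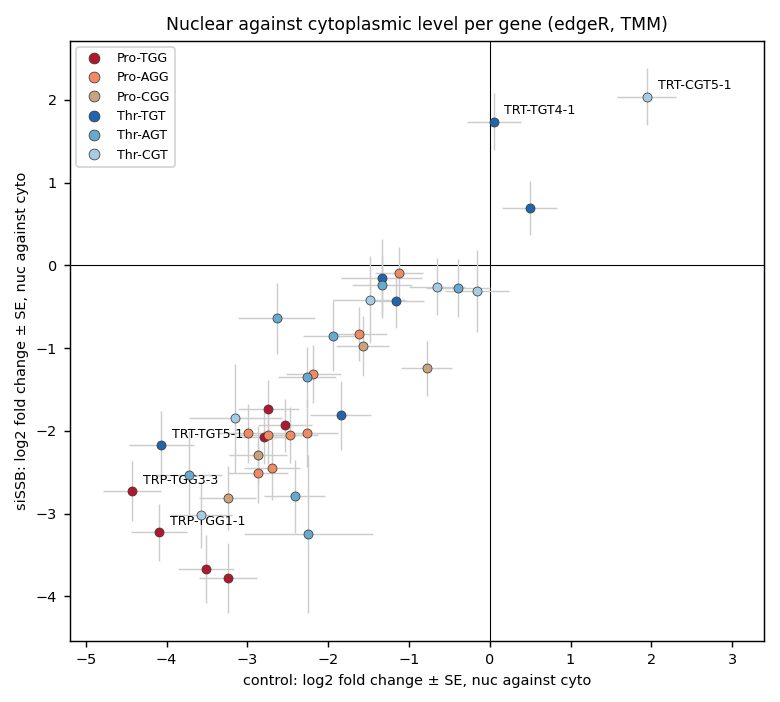
Log2 fold change ± SE of each gene, nuc against cyto, in control cells (horizontal axis) and in siSSB cells (vertical axis), coloured by anticodon. Pro-TGG genes lie at the lower left, and TRT-CGT5-1 lies to the upper right of 0 in both.

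Mitochondrial tRNAs of the same amino acids, which are made by another polymerase inside mitochondria, served as a comparison. MT-TT, the mitochondrial threonine tRNA, had a log2 fold change of 0.08 in total, 0.37 in cyto and -0.30 in nuc RNA, siSSB against control. MT-TP, the proline one, had -0.16, 0.31 and -0.23, and neither passed the test in any of the 3. Both were lower in nuc than in cyto RNA, at -1.83 and -1.87 in control. Of other polymerase III RNAs that La is known to bind (Y RNAs, vault RNAs, RN7SK and others), 3 of 12 tested fell in total RNA, 2 of 12 in nuc RNA and 2 of 12 in cyto RNA. Of the tRNA-like tRX genes tested, 3 of 5 fell in total, 1 of 3 in nuc and 1 of 4 in cyto RNA.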

How the data were processed

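Small RNA libraries from 18 HEK293T samples (3 per group) were prepared by the study with the NEBNext small RNA kit from mirVana PARIS extracts; titles mark PNK treatment. The authors deposited 1 table of raw read counts per feature for hg38. Per the labels, Bowtie2 and bedtools were used. Their versions, the treatment of multi-mapped reads and the strand setting for these small RNA libraries are not given in the sources used here. Columns were grouped by the sample labels. Each comparison was fitted in edgeR 4.0.16 (R 4.3.3; filterByExpr, TMM, quasi-likelihood F-test) on all features of its own libraries, with Benjamini-Hochberg adjustment over all tested and a threshold of 0.05. CPM used TMM-scaled library sizes; nuclear and cytoplasmic values differ in scale between fits. Sums by anticodon or amino acid, and shares of them, took entries of identical counts once and had no test. The ratios of proline to threonine counts, the member count ranges and the totals of all cytosolic tRNA counted every entry. Counting error from 1003 to 40481 member counts per library limits precision. Code was tested on simulated data, with changes set in features averaging at least 50 counts. Of changes of 1 on the log2 scale, 21% were called in total RNA and 7% in cyto RNA. Of changes of 2, 95% and 85% were called. A gene that missed the threshold may therefore still have changed. The nuclear knockdown was not simulated.

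Named genes were the most abundant of each anticodon, genes past the threshold and, above 12 calls, the 6 with the largest change, a mean of at least 50 counts and groups without overlap; other named genes were chosen after their values were seen. Members and lists were chosen with earlier results of these data known. Alternatives were other scalings, DESeq2 1.42.0, other count filters, identical entries once, a replicate block and leaving out libraries; scaling to other tRNAs was added after seeing the data. Positions and symbols came from RefSeq, sequences from hg38.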

Additional observations from a re-analysis of the deposited data

Results flagged for a closer look

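TRT-TGT4-1 and TRP-AGG2-6 had log2 fold changes of opposite sign in nucleus and cytoplasm, siSSB against control, with every siSSB library on one side of every control library in each fraction. TRT-TGT4-1 had a log2 fold change of 0.77 in nuc RNA, -1.10 in cyto RNA and -1.30 in total RNA. The interaction between nuc and cyto had an edgeR adjusted p of 0.958, and the difference between nuc and total RNA was not tested. TRP-AGG2-6, a proline gene that shares its sequence with 7 others, had a log2 fold change of 0.36 in nuc RNA and -0.83 in cyto RNA, also with an edgeR adjusted p of 0.958 for the interaction.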

How the results depend on the processing

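In total RNA, where 10 genes were called, the number was 4 with scaling to library size alone, 0 to snoRNAs, 39 to miRNAs and 4 to other tRNAs. It was 17 with a filter of at least 1 count, 7 with identical entries once, 12 by DESeq2 and 9 with DESeq2's size factors. Without 1 library it ranged from 3 to 13. It was 3 without siSSB replicate 1 or 2 and 5 without control replicate 2. In cyto RNA, where 6 were called, the number was 0 by library size, 0 by snoRNAs, 3 by miRNAs and 0 by other tRNAs. It was 12 by DESeq2, 4 with DESeq2's size factors, 12 with the 1 count filter, 10 with identical entries once and 0 to 3 without 1 library. It was 0 without control replicate 1 or 2 or siSSB replicate 1 or 2, 2 without control replicate 3 and 3 without siSSB replicate 3. Deviations of same-numbered libraries from their group means had r from -0.419 to 0.125. With 3 libraries per group, such values cannot decide whether same-numbered libraries are paired. A replicate block gave 11 calls in total and 0 in cyto RNA. In nuc RNA and in the interaction 0 genes were called in all alternatives run. The cause of these changes was not tested.

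These scalings moved the median over all features tested in total RNA (log2) to 0.55 (library size), 0.72 (snoRNAs), -0.60 (miRNAs) and 0.73 (other tRNAs). The threonine sum in total RNA had a log2 ratio of -0.66, -0.51, -1.73 and -0.48 under these 4 scalings, and the proline sum -0.53 under other tRNAs. In nuc RNA the threonine sum turned to 0.12, 0.063, 0.085 and 0.16, and the proline sum to 0.23, 0.18, 0.17 and 0.28. In cyto RNA the proline and threonine sums were -0.64 and -0.79 by snoRNAs and -0.49 and -0.64 by other tRNAs, and the Pro-CGG sum turned to 0.078 by other tRNAs. For nuc against cyto in control, library size, snoRNAs and miRNAs gave -6.91, -8.73 and -3.73 for proline and -5.59, -7.42 and -2.41 for threonine. In siSSB, library size and snoRNAs gave -5.82 and -7.91 for proline and -4.48 and -6.57 for threonine. TRT-CGT5-1 turned to -2.16 and -3.94 in control and -1.80 and -3.86 in siSSB by library size and snoRNAs, and TRT-TGT4-1 in siSSB to -2.07 and -4.12. Leaving out 1 library gave log2 ratios of -1.56 to -0.88 (proline) and -1.43 to -0.92 (threonine) in total, -1.20 to -0.89 and -1.36 to -1.10 in cyto, and -0.25 to 0.08 and -0.33 to -0.15 in nuc RNA. For nuc against cyto it gave -2.99 to -2.60 and -1.63 to -1.33 in control, with 30 to 33 genes lower or higher, and -2.06 to -1.73 and -0.78 to -0.46 in siSSB, with 23 to 28. Depth limits the nuclear results most, since those libraries held 1003 to 1753 counts of these genes.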
